A study of Mus musculus with 10 samples.

Results

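Poly(A)-selected RNA was compared with RNA depleted of ribosomal RNA (rRNA) in control cells of Neuro-2a, an established mouse neuroblastoma line used as a model of neuron-like cells. The libraries were chosen by their sample labels, which gave 3 libraries of poly(A) RNA and 1 of rRNA-depleted RNA, 4 of the 10 libraries of the series. All 4 came from cells called differentiated, kept with 2% serum and transfected by RNAiMAX with a small interfering RNA (siRNA) to luciferase (Luc) as a control. The strain is labelled C57BL/6+C57BL/6J+CBA, and no time after transfection is given. The same contrast with an siRNA to Sfpq, a nuclear RNA-binding protein, used 3 poly(A) libraries and 1 rRNA-depleted library of its own. Nothing in the labels tells whether replicates were separate cultures, and the p-values below therefore cover the variation among these libraries only, which may be technical.

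Poly(A) selection captures RNA by the run of adenosines that most messenger RNAs carry at the 3′ end. Removal of rRNA keeps RNA with and without such a tail, including precursors that have not been processed. RNAs made by RNA polymerase III, small nucleolar RNAs (snoRNAs) cut from introns, microRNA precursors and the mRNAs of replication-dependent histones are textbook cases of RNA without a long poly(A) tail. Those histone mRNAs end in a conserved stem-loop, are made in S phase and come mostly from clustered genes.

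Promoters of 3 such histone genes and of 1 replacement histone gene are shown because replication-dependent histones had the highest median ratio among the mRNA classes. H4c8, H2bc18 and H1f5 had the highest rRNA-depleted level of their families, and H3f3b, whose mRNA is polyadenylated, had the highest such level among replacement histones. Each runs from 250 bases before to 50 bases after the start of the gene, 5′ to 3′, from RefSeq on GRCm38.p6. Capitals mark TATAAA, the core of the TATA box, and CCAAT, a common promoter element, each searched on both strands. Positions are chr13:23530794-23531093 (+ strand) for H4c8, chr3:96269450-96269749 (+ strand) for H2bc18, chr13:21780576-21780875 (- strand) for H1f5 and chr11:116024455-116024754 (- strand) for H3f3b.
H4c8: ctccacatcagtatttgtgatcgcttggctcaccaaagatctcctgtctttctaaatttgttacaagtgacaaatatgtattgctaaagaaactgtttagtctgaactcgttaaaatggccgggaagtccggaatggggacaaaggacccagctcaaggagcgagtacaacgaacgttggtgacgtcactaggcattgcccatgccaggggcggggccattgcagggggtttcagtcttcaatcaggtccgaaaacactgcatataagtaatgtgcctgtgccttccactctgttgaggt
H2bc18: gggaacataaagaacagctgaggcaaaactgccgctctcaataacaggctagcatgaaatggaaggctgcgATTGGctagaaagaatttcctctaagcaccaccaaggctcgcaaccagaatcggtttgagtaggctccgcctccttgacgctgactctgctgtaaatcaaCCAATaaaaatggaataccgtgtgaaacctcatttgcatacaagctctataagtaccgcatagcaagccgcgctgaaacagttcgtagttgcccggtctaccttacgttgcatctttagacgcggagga
H1f5: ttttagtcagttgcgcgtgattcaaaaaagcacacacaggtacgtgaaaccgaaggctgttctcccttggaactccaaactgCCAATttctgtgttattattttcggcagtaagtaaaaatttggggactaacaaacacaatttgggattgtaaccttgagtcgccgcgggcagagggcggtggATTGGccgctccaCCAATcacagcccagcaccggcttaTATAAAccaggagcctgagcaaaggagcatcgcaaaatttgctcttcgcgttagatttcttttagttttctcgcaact
H3f3b: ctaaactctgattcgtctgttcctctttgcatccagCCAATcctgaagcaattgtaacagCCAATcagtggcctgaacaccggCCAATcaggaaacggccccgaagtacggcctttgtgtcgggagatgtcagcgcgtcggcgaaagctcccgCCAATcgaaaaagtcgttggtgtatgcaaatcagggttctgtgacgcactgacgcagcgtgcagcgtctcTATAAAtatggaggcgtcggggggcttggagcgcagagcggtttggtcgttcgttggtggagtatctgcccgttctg
TATAAA was found in 34 of 60 promoters (56.7%) of 59 replication-dependent histone genes, in 1 of 10 (10%) of replacement histone genes and in 4416 of all 32544 promoters (13.6%). CCAAT was found in 51 of 60 (85%), 7 of 10 (70%) and 12158 of 32544 (37.4%). The H4c8 window holds neither, H2bc18 holds 2 CCAAT, H1f5 holds 1 TATAAA and 3 CCAAT, and H3f3b holds 1 and 4. A match is a description of letters, not a binding site.

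Levels are RPKM, that is, reads per length of a transcript (in kilobases) and per size of its library, with 1 row for each of 30978 RefSeq transcripts. Identifiers that start with NM are mRNAs (27362 rows) and those with NR are noncoding RNAs (3616 rows). Values of microRNA hairpins of known length came out as whole reads at depths of 24209582, 27567700 and 30872517 reads for poly(A) replicates 1 to 3 and 63823017 for the rRNA-depleted library. Across rows, on log2(RPKM + 0.5), Pearson's correlation was 0.996 between poly(A) replicates 1 and 2 and 0.984 and 0.978 between each of them and replicate 3; rows are not independent replicates. Of 12 markers of sympathetic neuroblasts, 11 reached 1 RPKM under both methods. No gene on the fibroblast, leukocyte, astrocyte, hepatocyte and epithelium lists reached 1 RPKM under either method.

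Values that amount to parts of a read were more frequent in the poly(A) files than in the rRNA-depleted ones. For Gapdh, a glycolytic enzyme with many processed copies in the mouse genome, the rRNA-depleted value equalled 1205 whole reads on 1232 bases, whereas the poly(A) values equalled 38607, 46293 and 34195 reads after rounding and were whole only at 60 times that length. Among 14794 rows with at least 30 reads in every library, the values and the length shared a divisor of 6 or more in 10.0% for the rRNA-depleted pair (Luc and Sfpq) and in 3.52% for poly(A) Luc replicates 1 and 2. The part of this difference in the results on histones, ribosomal proteins, Gapdh and other multi-copy families below was not tested.

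A typical transcript had a lower RPKM in rRNA-depleted RNA. Of 16601 rows tested, 430 were higher (2.59%) and 4746 lower (28.6%) in rRNA-depleted RNA (limma, Benjamini-Hochberg adjusted p under 0.05), and 11425 did not pass. The median log2 ratio of rRNA-depleted to poly(A) was -0.42, so the middle row stood at 74.9% of its poly(A) level. The rRNA-depleted value lay above all 3 poly(A) values in 1855 rows (11.2%) and below all 3 in 11380 (68.6%). Ratios of at least 4-fold were found in 167 rows upward and 566 downward, against a median SD among poly(A) libraries of 0.17 log2 units. With median-ratio scaling, which puts the middle row at 0.01, 921 rows were higher and 1565 lower, and with quantile normalization the counts were 1048 and 1412. Higher rows were thus 8.31% of the calls as deposited, 37.0% under the first and 42.6% under the second.

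The single rRNA-depleted library is assumed by limma to vary like the poly(A) ones, and an exact permutation of 3 against 1 cannot go below p = 0.25 (one-sided) or 0.5 (two-sided). The Sfpq siRNA libraries, which share no sample with the Luc ones, gave ratios of the same sign for 425 of the 430 higher and 4744 of the 4746 lower rows. Over all tested rows the median was also below 0 with both siRNAs (-0.42 for Luc, -0.48 for Sfpq), and the ratios correlated at 0.97 (Pearson). The share of all tested rows with the same sign was not counted. The Sfpq contrast, too, sets 3 libraries against 1. Without poly(A) replicate 3, 1238 rows were higher and 8529 lower.

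**Figure D1:**
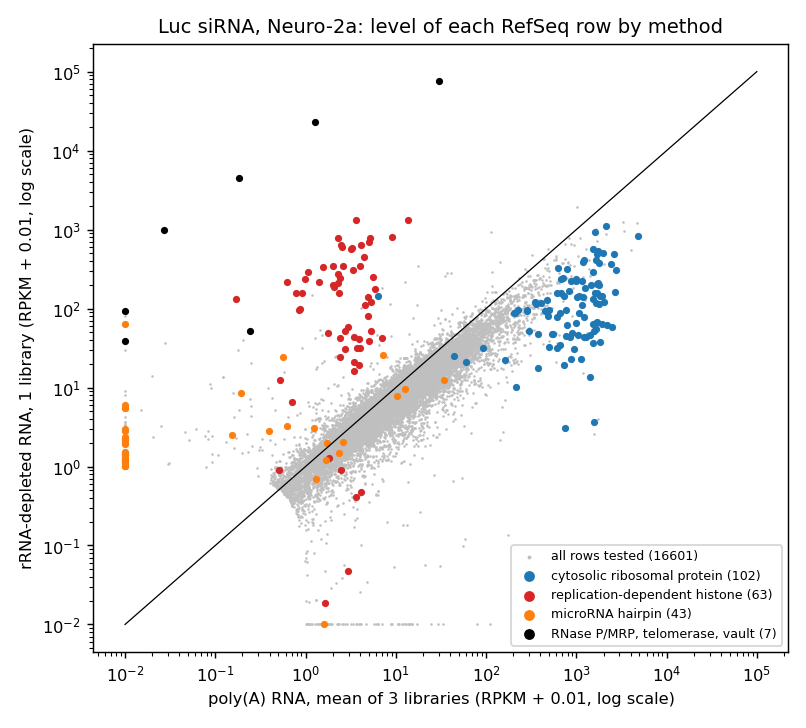
Each point is 1 RefSeq row, with its mean RPKM over 3 poly(A) libraries on the x axis and its RPKM in the rRNA-depleted library on the y axis, both plus 0.01 on log scales; the line marks equal levels. Histone (red) and RNase P/MRP, telomerase and vault (black) rows lie mostly above the line, and ribosomal protein rows (blue) mostly below it.

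The largest gaps were in the RNAs of small ribonucleoprotein enzymes. All 7 tested rows of this list were higher in rRNA-depleted RNA, against 2.59% of all rows. However, 5 of the 7 (Rprl1, Rprl2, Rprl3, Vaultrc5 and Terc, described below) had a poly(A) mean below the filter's level of 0.5 RPKM. These 5 entered the test only through the rRNA-depleted value, so a larger value there was a condition of their being tested. Bc1, also on the list, was 0 in all 4 libraries. Rmrp, the RNA of RNase MRP, which cuts precursor rRNA, had 43.3, 29.9 and 16.7 RPKM in poly(A) and 75042 in rRNA-depleted RNA (log2 ratio 11.37, SE 0.51, limma adjusted p = 0.000333). In reads this was 288, 227 and 142 against 1317085, which is 2.06% of the whole rRNA-depleted library. Rpph1, the RNA of RNase P, which trims the 5′ end of transfer RNAs, had 0.635, 1.66 and 1.54 RPKM in poly(A) and 23270 in rRNA-depleted RNA (log2 ratio 13.73, SE 0.40, limma adjusted p = 0.000156). For both RNAs the rRNA-depleted library stood far above every poly(A) library.

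Copies of the RNase P RNA gene followed the same order. Rprl3 had 0.174, 0.281 and 0.0683 RPKM in poly(A) and 4518 in rRNA-depleted RNA, and Rprl2 0, 0.0508 and 0 against 976 RPKM. Rprl1 and the vault RNA Vaultrc5, part of a large cytoplasmic particle, were 0 in all 3 poly(A) libraries and 38.7 and 94.2 RPKM in rRNA-depleted RNA. The Rprl genes are named as relatives of the RNase P RNA gene, so the assignment of reads among them is uncertain.

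Terc, the template RNA of telomerase, had 1, 3 and 4 reads in the poly(A) libraries and 1321 reads in the rRNA-depleted one, which is 0.104, 0.274 and 0.326 against 52.1 RPKM. It, too, entered the test only through the rRNA-depleted value. The exact Poisson 95% intervals, which cover counting error only, were 0.00263 to 0.580, 0.0565 to 0.801 and 0.0889 to 0.836 RPKM in poly(A) and 49.4 to 55.0 in rRNA-depleted RNA, with no overlap. Rn4.5s, a small cytoplasmic RNA of rodents that the lists held with rRNA, had 0.807, 1.27 and 1.47 against 149 RPKM. Over genes, the enzyme RNA list made up between 0.00426% and 0.0101% of the RPKM sum of the poly(A) libraries and 32.9% of that of the rRNA-depleted library. RPKM weighs short RNAs strongly.

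MicroRNA hairpins were seen mainly without poly(A) selection, at low levels. Of 624 rows matched by name, 594 were 0 in all 3 poly(A) libraries, and 120 of those had reads in rRNA-depleted RNA. Of the 43 tested, 30 had a poly(A) mean below 0.5 RPKM and entered the test only through the rRNA-depleted value, so their calls are not counted here. Among the other 13, 1 was higher and 1 lower (median log2 ratio -0.14), and the median over 11 tested rows with whole reads in every library was 0.17. The lower row was Mir22hg, a long host transcript that the name pattern included. Mature sequences from 3 hairpins with larger values in rRNA-depleted RNA follow, from RefSeq on GRCm38.p6, to show that their seeds (bases 2 to 8, in capitals), which pair with target mRNAs, differ; the values belong to the hairpin rows, not to the mature arm.
mmu-miR-682: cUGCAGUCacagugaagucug
mmu-miR-3064-5p: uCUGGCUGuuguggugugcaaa
mmu-miR-125a-5p: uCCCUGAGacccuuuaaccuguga
Mir682 was 0 in the poly(A) libraries and 64.5 RPKM in the rRNA-depleted library. Mir3064 had 0, 0.541 and 0 against 8.42 RPKM. Mir125a, of a family related to lin-4 of worms, was 0 in poly(A) RNA and 5.53 RPKM without selection, and Mir30d 0 and 5.92. Mir682 exceeded the other 3, and a few reads set the RPKM of so short an RNA.

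The snoRNAs, which guide chemical modification of rRNA, did not move as 1 group. Against 2.59% higher and 28.6% lower over all rows, 8 of 14 tested C/D box rows (2′-O-methylation guides) were higher and 5 lower. Of 11 H/ACA rows (pseudouridylation guides), 4 were higher and 4 lower. In 5 and 3 of these rows the poly(A) mean, and in 6 and 6 the rRNA-depleted value, was below 0.5 RPKM, so that most rows entered the test through 1 method only. Among rows with a poly(A) mean of at least 0.5 RPKM, 3 of 9 C/D rows were higher and 5 lower (median -2.52). For H/ACA, 1 of 8 such rows was higher and 4 lower (median -1.80). These sets still hold the rows that entered only through poly(A) RNA. With no filter on low values, 8 of 32 C/D rows were higher and 1 lower, and 3 of 27 H/ACA rows were higher, while the 4 lower H/ACA calls were lost. Snord35a had 0.464, 0.815 and 1.46 RPKM in poly(A) and 31.7 in rRNA-depleted RNA, Snord43 was 0 in poly(A) and 29.7, and Snora78 had 0, 0.231 and 0 against 11.1 RPKM. In the other direction, Snord22 had 15.1, 18.7 and 8.998 RPKM in poly(A) and was listed at 0 in the rRNA-depleted library, as was Snora64 (5.65, 8.68 and 23.3 in poly(A)), whose call was lost with no filter on low values (limma adjusted p = 0.0732). Both were listed at 0 although the rRNA-depleted library was the deepest of the 4. The median over C/D rows was 1.39 and became -0.34 with no filter and -0.55 at a minimum mean of 2 RPKM, while that of H/ACA rows was -1.60 and became 3.39 at that minimum.

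**Figure D2:**
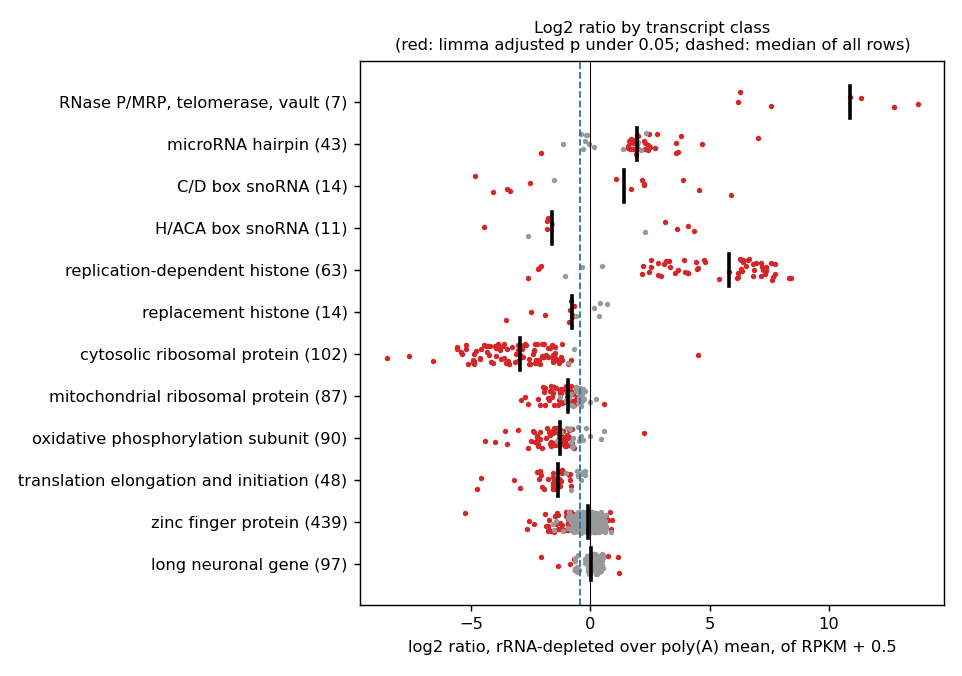
Log2 ratio of rRNA-depleted to poly(A) RNA for each tested row of 12 classes, with the number of rows in brackets; black bars are class medians, red points passed limma, and the dashed line is the median of all rows (-0.42). The histone median is 5.83 and the ribosomal protein median -2.96, and both snoRNA classes split; the ratio of a row at 0 in one method depends on the 0.5 added to every value.

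Replication-dependent histone mRNAs were far higher without poly(A) selection. Of 63 rows tested (65 in the files), 56 were higher in rRNA-depleted RNA and 4 lower, against 2.59% and 28.6% of all rows. Their median log2 ratio was 5.83. In 2 of the 63 the poly(A) mean was below 0.5 RPKM, so they entered the test only through the rRNA-depleted value. Of the other 61, 55 were higher and 4 lower, with a median of 5.83. The 63 tested rows had a median of 4.97 in the Sfpq siRNA libraries. Summed over genes, they had 227, 224 and 148 RPKM in poly(A) RNA and 15143 in rRNA-depleted RNA, 75.8 times the poly(A) mean. Their share of the RPKM sum was between 0.0338% and 0.0520% in poly(A) RNA and 4.79% in rRNA-depleted RNA. Poly(A) replicate 3 had the lowest sum, and leaving out a poly(A) library gave medians of 5.69 to 6.01.

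The families differed in degree. All 13 H4 rows were higher, with a median log2 ratio of 7.35 (6.32 to 8.43), as were all 5 tested rows of the linker histone H1 (median 6.85) and 16 of 17 rows of H2B (median 6.41). For H2B, 2 of the 17 rows entered the test only through the rRNA-depleted value, and the other 15 were all higher. H3 and H2A, core histones like H4, had medians of 3.74 (9 of 12 rows higher) and 2.84 (13 of 16 rows higher). Median poly(A) levels lay between 1.29 and 4.75 RPKM in every family and library, whereas rRNA-depleted medians were 607 RPKM for H4, 289 for H1 and 218 for H2B, but 43.3 for H3 and 27.9 for H2A. The differences between families were not tested. Only 5 of the 63 rows, none of them H2A or H3, came out as whole reads in every library, and their median was 7.31.

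H4c8 had 5.42, 3.73 and 1.77 RPKM in poly(A) and 1327 in rRNA-depleted RNA (log2 ratio 8.43, SE 0.52, limma adjusted p = 0.000783). H4c17 had 17.6, 15.02 and 8.16 against 1321 RPKM (log2 ratio 6.62). Both were at their lowest in poly(A) replicate 3, and no poly(A) value came near the rRNA-depleted one. H2bc18 had 9.97, 8.02 and 9.07 against 808 RPKM (log2 ratio 6.41, SE 0.18, limma adjusted p = 0.000156). H1f5 had 3.995, 3.29 and 2.27 against 573 RPKM (log2 ratio 7.31), and H1f2 4.81, 4.22 and 3.05 against 345 RPKM (log2 ratio 6.27). The last 3 also did not overlap between methods.

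A few members of the same list went the other way. H3c13 had 3.19, 3.75 and 1.78 RPKM in poly(A) and 0.0381 in rRNA-depleted RNA (log2 ratio -2.61, limma adjusted p = 0.00821), and H3c14 1.73, 1.92 and 1.24 against 0.00859 RPKM (log2 ratio -2.05, limma adjusted p = 0.00393). H2ac18 had 4.87, 5.26 and 2.34 against 0.461 RPKM (log2 ratio -2.21, limma adjusted p = 0.0196), and H2ac19 4.27, 4.61 and 2.05 against 0.404 RPKM (log2 ratio -2.13). In these 4 every poly(A) value exceeded the rRNA-depleted one. H2ac18 and H2ac19 had the same rRNA-depleted value as a share of the poly(A) mean (0.111), so they may hold the same reads and are not independent. That was not tested. With no filter on low values H3c13, H2ac18 and H2ac19 no longer passed limma (adjusted p = 0.0545, 0.0907 and 0.0930), and with median-ratio scaling neither did H2ac18 (0.0519) and H2ac19 (0.0536).

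**Figure D3:**
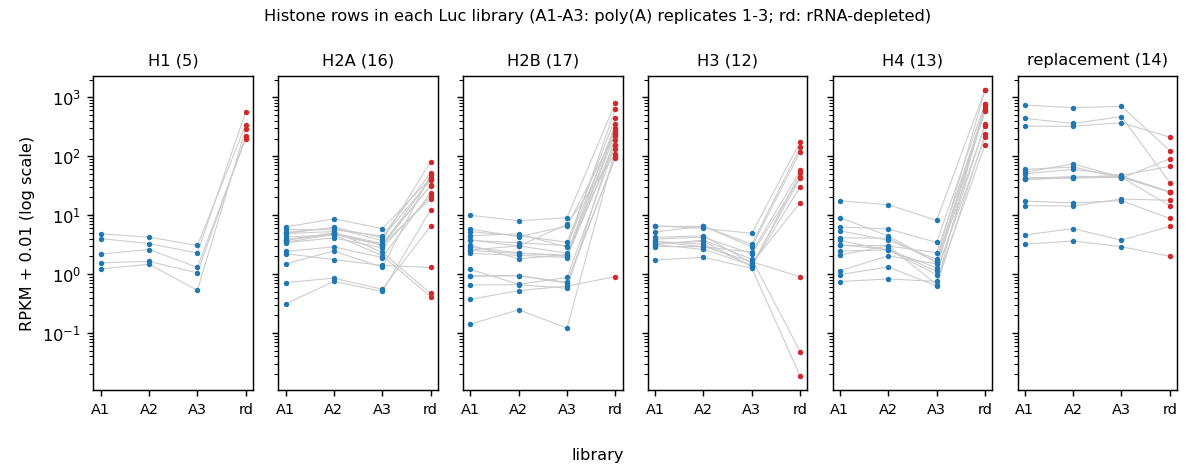
RPKM + 0.01 (log scale) of each tested histone row in poly(A) replicates 1 to 3 (A1 to A3, blue) and the rRNA-depleted library (rd, red), by family, with lines joining the values of a row and the number of rows in brackets. H1 and H4 rows lie between 0.520 and 17.6 RPKM in poly(A) and between 158 and 1327 in rRNA-depleted RNA, while a few H2A and H3 rows and most replacement histone rows are lower there.

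Replacement histones, whose genes lie mostly outside the clusters and whose mRNAs mostly carry poly(A) tails, did not share the gain as a group. Of 14 rows (11 genes), 9 were lower and 0 higher by limma (median -0.78), against 28.6% and 2.59% of all rows. At an unadjusted limma p under 0.05, 1 was higher, and with quantile normalization 3 were. Lower rows fell to 3 with median-ratio scaling (median -0.31), 2 with quantile normalization (median -0.14) and 3 without poly(A) replicate 1. H3f3a, which encodes histone H3.3, had 439.8, 361 and 472 RPKM in poly(A) and 35.8 in rRNA-depleted RNA (log2 ratio -3.54, SE 0.21, limma adjusted p = 0.000668). H3f3b encodes the same protein and had 324, 324 and 370.1 against 211 RPKM (log2 ratio -0.68, limma adjusted p = 0.0347). It turned higher with quantile normalization (0.72, limma adjusted p = 0.0452) and did not pass with median-ratio scaling, with no filter, or without poly(A) replicate 1 or 2 (0.407, 0.0722, 0.108 and 0.0670). H2az1, which encodes histone H2A.Z, had 740.2, 669 and 703 against 125 RPKM (log2 ratio -2.49, limma adjusted p = 0.000866). H2ax, the variant phosphorylated at DNA breaks, had 59.9, 65.8 and 42.6 against 90.4 RPKM (log2 ratio 0.71, limma adjusted p = 0.109), and passed without poly(A) replicate 3 (0.0122). The linker variant H1f0 had 50.4, 60.1 and 47.4 against 67.7 RPKM (log2 ratio 0.37, limma adjusted p = 0.201). For H2ax and H1f0 the rRNA-depleted value lay above all poly(A) values.

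Long noncoding RNAs on a list of nuclear and imprinted RNAs did not move together. The highest poly(A) values on that list (31.1, 35.2 and 38.5 RPKM) equal those of the pseudogene Pisd-ps3. Malat1, an abundant nuclear speckle RNA whose 3′ end is cut by RNase P, had 15.04, 13.6 and 17.8 RPKM in poly(A) and 75.3 in rRNA-depleted RNA (log2 ratio 2.25, SE 0.20, limma adjusted p = 0.00234). It was the only one of 12 rows of its list that was called higher. The 3 lower rows, 2 of Tug1 and 1 of Chaserr, were listed at 0 in rRNA-depleted RNA, and 3 of 12 is near the 28.6% of all rows. Neat1, the scaffold of paraspeckles with a short polyadenylated and a long form, had 8.33, 8.75 and 6.47 against 6.71 RPKM (log2 ratio -0.20, SE 0.23, limma adjusted p = 0.533), so its rRNA-depleted value lay within the poly(A) range. Its row spans 3177 bases and does not separate the forms. The 2 rows of Xist, which silences an X chromosome, had 8.77, 8.16 and 11.3 against 6.36 RPKM and 7.34, 6.67 and 8.58 against 5.57 RPKM (log2 ratios -0.52 and -0.40, limma adjusted p = 0.152 and 0.199), and the first passed without poly(A) replicate 3 (0.0367). The rows of Meg3, Miat and Kcnq1ot1 were below the level tested.

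Noncoding hosts of snoRNAs, spliced transcripts that carry snoRNAs in their introns, had more lower than higher rows. Of 24 rows (19 genes), 13 were lower (54.2%) and 1 higher, against 28.6% and 2.59% of all rows. Of the 13, 5 were listed at 0 in rRNA-depleted RNA, and the median of the 24 was -1.44. Among 11 rows with whole reads in every library, 5 were lower and 1 higher, and the median was -0.38, near that of all rows. Snhg1 had 147, 116 and 250.1 RPKM in poly(A) and 11.8 in rRNA-depleted RNA (log2 ratio -3.73, SE 0.43, limma adjusted p = 0.00468). Snhg8 was the higher one, with 7.26, 5.22 and 6.15 against 20.3 RPKM (log2 ratio 1.65, limma adjusted p = 0.00783). The lowest ratio was that of 2410006H16Rik, with 255, 308 and 308 against 0.0340 RPKM (log2 ratio -9.08, SE 0.18, limma adjusted p = 8.57e-05), and Snhg15 had 24.6, 25.2 and 24.3 in poly(A) and was listed at 0 in rRNA-depleted RNA.

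Such listed zeros were mostly noncoding rows. Of 14174 rows with a poly(A) mean of at least 2 RPKM, 41 were listed at 0 in the rRNA-depleted Luc library, and 31 of these also in the Sfpq one. NR rows made up 73.2% of the 41, against 3.82% of all 14174. The 41 included both rows of Tug1, a nuclear lncRNA (the first had 4.53, 4.04 and 5.399 RPKM in poly(A)), but also the mRNAs of Rbm42, an RNA-binding protein (34.2, 39.6 and 24.9), and Ptpmt1, a mitochondrial phosphatase (33.8, 27.3 and 26.9). Genes that overlap another gene made up 34.2% of the zero rows with a named gene, against 27.8% of all such rows. No fold is given for a row listed at 0. Such a 0 can be a step of the counting as well as absence of the RNA, which was not tested, and the lower calls of these rows carry the same limit.

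Cytosolic ribosomal protein mRNAs, short and among the most abundant of the cell, were the mRNA class with the lowest median. Of 102 rows (83 genes), 99 were lower and 1 higher, against 28.6% and 2.59% of all rows. These 102 rows had a median log2 ratio of -2.96, or -2.55 relative to the median of all rows. Their RPKM sum over genes was 104094, 103539 and 93918 in poly(A) and 15184 in rRNA-depleted RNA, which is between 21.4% and 23.8% of the RPKM sum against 4.81%. Rplp0, a protein of the ribosomal stalk, had 5063, 4967 and 4435 against 819 RPKM (log2 ratio -2.55, SE 0.19, limma adjusted p = 0.00127). Rpl30 had 1644, 1134 and 1945 against 3.65 RPKM (log2 ratio -8.53, SE 0.32, limma adjusted p = 0.000229), and Rpl21 574, 521 and 1149 against 3.09 RPKM (log2 ratio -7.61). In these 3 the methods did not overlap. Rpl8 (2282, 2471 and 1670 against 1116 RPKM; log2 ratio -0.92, limma adjusted p = 0.0545) and Rpl41 (1912, 2136 and 818 against 928 RPKM; log2 ratio -0.69, limma adjusted p = 0.389) did not pass. Without poly(A) replicate 3 both passed (0.00286 for each), and Rpl8 also without replicate 1 (0.0292). Rpl32l was the higher row, with 4.05, 4.81 and 10.1 against 143 RPKM.

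Ribosomal protein genes have many processed copies, and 6 of the 102 rows came out as whole reads in every library. These 6 had a median of -2.78. Under median-ratio scaling 89 rows were lower and under quantile normalization 67, with medians of -2.49 and -1.75.

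Other housekeeping mRNAs were lower to a smaller degree. Lower rows were 38 of 48 for translation factors (median -1.36), 72 of 90 for subunits of oxidative phosphorylation (-1.25) and 56 of 87 for mitochondrial ribosomal proteins (-0.95), against 28.6% of all rows. With median-ratio scaling these counts were 21, 35 and 23. Among rows with whole reads, medians were -0.98 (6 rows), -1.12 (47) and -0.81 (51). The 1 higher row among mitochondrial ribosomal proteins was Mrpl10 (24.2, 25.99 and 26.2 against 38.1 RPKM, limma adjusted p = 0.0452), which did not pass without poly(A) replicate 1 or 2 (0.316 and 0.137). That among oxidative phosphorylation subunits was a noncoding row of Ndufa7, of complex I (1.25, 2.82 and 1.28 against 9.92 RPKM, limma adjusted p = 0.0161; 0.0797 with no filter).

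Among translation factors, Eif1, which helps to select the start codon, had 579, 511 and 674 against 21.1 RPKM (log2 ratio -4.76, SE 0.21, limma adjusted p = 0.000314), and Eif3f 142, 153 and 152 against 5.68 RPKM (log2 ratio -4.59). Eef1a1, which brings transfer RNAs to the ribosome, had 4170, 3638 and 6469 against 1199 RPKM (log2 ratio -1.94, limma adjusted p = 0.0163), and did not pass with quantile normalization (0.222) or with no filter (0.0924). Eif3b, a scaffold of the initiation factor eIF3, did not pass, with 144, 151 and 144 against 119 RPKM (log2 ratio -0.30, limma adjusted p = 0.176), and was higher with quantile normalization (0.78). In all 4 the rRNA-depleted value lay below the 3 poly(A) values.

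Among subunits of oxidative phosphorylation, Atp5k, a subunit of ATP synthase, had 133, 150.1 and 204 against 6.92 RPKM (log2 ratio -4.43, limma adjusted p = 0.000754). The most abundant rows were milder: Atp5b, its catalytic subunit, had 1683, 1754 and 1661 against 720.3 RPKM (log2 ratio -1.24, limma adjusted p = 0.00689), and Uqcrq, of complex III, 1238, 1412 and 1186 against 569 RPKM (log2 ratio -1.16, limma adjusted p = 0.0113). With median-ratio scaling neither of the last pair passed (0.0566 and 0.0901), and with quantile normalization their ratios turned positive (0.17 and 0.45). Among mitochondrial ribosomal proteins, Mrpl23 had 175, 163 and 149 against 21.4 RPKM (log2 ratio -2.89), and Mrpl20 159.7, 159.7 and 198 against 75.7 RPKM (log2 ratio -1.17; limma adjusted p = 0.0578 with median-ratio scaling). In each of these 5 the methods did not overlap.

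Common reference genes moved in different directions. Gapdh had 1294, 1363 and 899 RPKM in poly(A) and 15.3 in rRNA-depleted RNA (log2 ratio -6.20, SE 0.28, limma adjusted p = 0.000333). Actb, cytoplasmic actin, had 1045, 1088 and 894 against 1913 RPKM (log2 ratio 0.93, SE 0.19, limma adjusted p = 0.0226), although it did not pass with no filter (0.0845). Gapdh was therefore far below, and Actb above, all of its poly(A) values. Tuba1a, an alpha tubulin, had 3323, 3409 and 3313 against 969 RPKM (log2 ratio -1.79, limma adjusted p = 0.00262; 0.143 with quantile normalization), and the neuronal beta tubulin Tubb3 428, 486 and 355 against 423 RPKM (log2 ratio 0.01, limma adjusted p = 0.972). Tubb3 lay within its poly(A) range and Tuba1a below it. The glycolytic enzyme Eno1 had 1317, 1426 and 1052 against 141 RPKM (log2 ratio -3.15). The row of Lars2, the mitochondrial leucyl-tRNA synthetase and not a reference gene, had 1777, 1629 and 1266 against 2.56 RPKM (log2 ratio -8.98, SE 0.23, limma adjusted p = 0.000131). Whether its poly(A) reads came from that mRNA was not tested.

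Copies and pseudogenes named after a parent gene, taken by the name endings ps and rt, did not follow their parents in every pair. Of 33 with both tested, 8 had a poly(A) mean below 0.5 RPKM and entered the test only through the rRNA-depleted value. Of the other 25, 12 had a log2 ratio above 0 (median -0.01). In 24 of these 25 pairs the parent lay below 0 (median over pairs -1.94), and in 17 the copy had the higher ratio. Pisd and Rps15a recur as parents, and a copy and its parent may share reads, so the pairs are not independent. Rps19-ps3 had 5.72, 4.73 and 10.8 RPKM in poly(A) and 184 in rRNA-depleted RNA, whereas Rps19 had 1613, 1843 and 1557 against 55.4 RPKM. Rplp2-ps1 had 84.5, 115 and 142 against 927 RPKM, whereas Rplp2 had 3138, 3473 and 1347 against 161 RPKM. In both pairs the copy exceeded the parent in rRNA-depleted RNA and was far below it in poly(A) RNA.

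Aldoart1 and Aldoart2, copies of the glycolytic aldolase gene Aldoa, had 0.181, 0.133 and 0.260 against 40.5 RPKM and 0, 0.0429 and 0.00957 against 36.7 RPKM. Both copies are among the 8 that entered the test only through the rRNA-depleted value. Aldoa itself had 582, 671 and 546 against 438 RPKM (log2 ratio -0.45, limma adjusted p = 0.128; 1.23 with quantile normalization). Rps27rt and Rps27 had the same ratio of -5.20, with 967, 879 and 777 against 23.3 RPKM and 965, 876 and 775 against 23.2 RPKM. Reads that match a copy and its parent equally cannot be told apart, and the part of read assignment in these ratios was not tested.

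**Figure D4:**
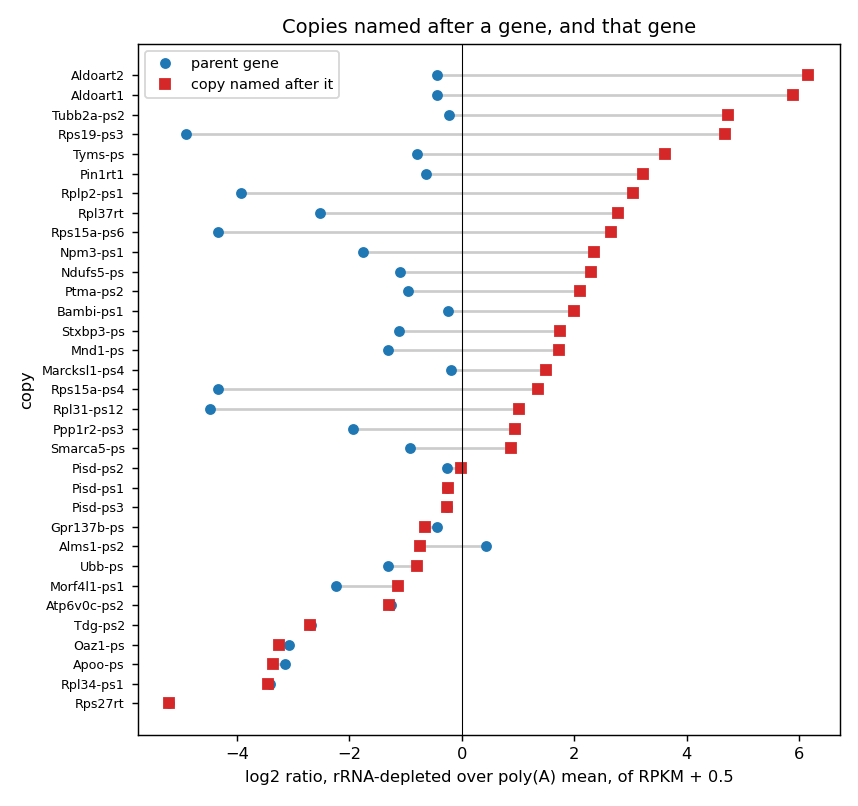
Log2 ratio of rRNA-depleted to poly(A) RNA for 33 copies or pseudogenes (red squares) and the parent genes they are named after (blue circles), each pair joined by a grey line. The 33 include the 8 that entered the test only through the rRNA-depleted value; Rps27rt and Rps27 coincide at -5.20.

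Longer mRNAs had higher ratios. Transcript length was recovered from the values, as the smallest length that turns every library into whole reads. Over 8333 mRNA rows with whole reads and without replication-dependent histones, the median log2 ratio was -0.82 below 1000 bases (500 rows), -0.57 from 1000 to 2000 (1953), -0.46 to 3000 (2014), -0.34 to 4000 (1550), -0.24 to 6000 (1485), -0.11 to 8000 (525) and 0.09 above (306). Lower rows made up 53% of the shortest and 5.88% of the longest group, and higher rows 0.2% and 6.54%. Spearman's correlation of length with the ratio was 0.38 across rows, and 0.44 for the Sfpq siRNA libraries. Longer rows had lower poly(A) means (Spearman -0.30), and rows with higher poly(A) means had lower ratios (-0.40). The poly(A) mean is also the denominator of the ratio, which by itself favours a negative correlation. The parts of length and level in the ratio were not tested. Rows of 1 gene share reads and are not independent.

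**Figure D5:**
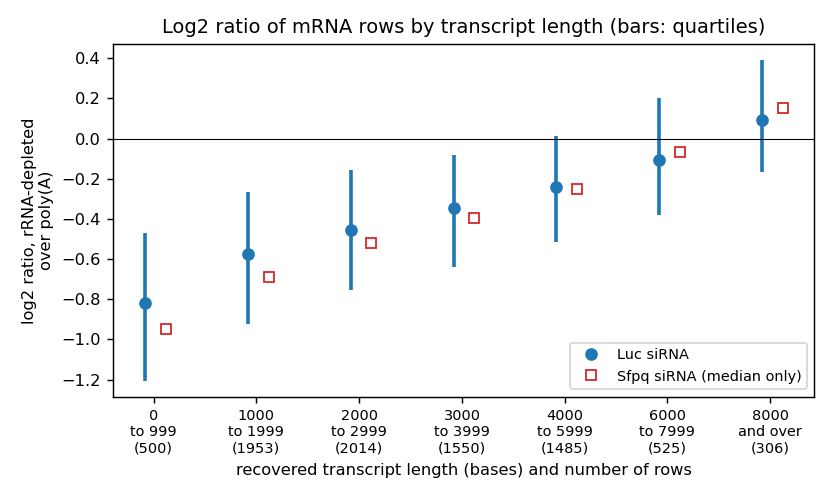
Median log2 ratio of rRNA-depleted to poly(A) RNA by recovered transcript length for 8333 mRNA rows, with bars from the lower to the upper quartile for Luc siRNA (blue circles) and medians for Sfpq siRNA (red squares). The Luc medians go from -0.82 below 1000 bases to 0.09 at 8000 and over.

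Genes known for very long transcripts or long gene bodies gave few genes of their own. Among 62 rows (35 genes) of huge transcripts, 20 were higher and 1 lower (median 0.26), against 2.59% and 28.6% of all rows. However, the higher rows belong to 3 genes, Plec with 15 rows, Ahnak with 4 and Syne1 with 1. Only 5 rows were higher without poly(A) replicate 1, 2 with no filter on low values and 2 with 1 row per gene. An Ahnak row, for a giant scaffold protein, had 1.84, 1.01 and 1.36 against 6.404 RPKM (log2 ratio 1.88, limma adjusted p = 0.00894; 0.0519 with no filter). Among 97 rows (33 genes) of long neuronal genes, 3 rows of 1 gene were higher and 6 rows lower, with a median of 0.03, against 2.59% and 28.6% of all rows. With median-ratio scaling 21 were higher and 2 lower, with quantile normalization 22 and 2, and without poly(A) replicate 3 22 and 13. Leaving out replicate 1 or replicate 2 gave 2 and 2, and 1 of the 3 rows of that gene no longer passed in either case. That gene was Ncam1, a neural cell adhesion molecule, with 15.6, 14.8 and 15.3 against 35.5 RPKM (log2 ratio 1.20, SE 0.16, limma adjusted p = 0.00662) for the row with the largest ratio.

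Regulatory mRNAs gave a mixed picture. Zinc finger mRNAs had a median of -0.10 (6 of 439 rows higher, 55 lower), and immediate early genes 0.02 (1 of 44 higher, 7 lower), against 2.59% higher and 28.6% lower of all rows. The balance turned with median-ratio scaling, to 33 higher and 12 lower zinc finger rows and 5 higher and 1 lower immediate early rows. Dusp6, a phosphatase that turns off ERK, was the higher immediate early row as deposited, with 40.4, 38.2 and 38.7 against 70.1 RPKM (log2 ratio 0.84, limma adjusted p = 0.0156), and did not pass without poly(A) replicate 1 (0.0722). Nr4a1, a nuclear receptor, had 5.47, 5.29 and 3.75 against 1.35 RPKM (log2 ratio -1.51, limma adjusted p = 0.0134; 0.0543 with median-ratio scaling). SR splicing factors and Clk kinases had 20 of 32 rows lower (median -1.10), against 28.6% of all rows. With median-ratio scaling 9 were lower and 2 higher, and with quantile normalization 5 and 3. Srsf9 had 53.5, 52.5 and 44.8 against 9.03 RPKM (log2 ratio -2.41, limma adjusted p = 0.00130), while Srsf2 had 99.7, 101 and 93.01 against 105 RPKM (log2 ratio 0.10, limma adjusted p = 0.653). Sfpq itself had 56.8, 60.8 and 72.98 against 30.8 RPKM in its noncoding row (log2 ratio -1.03, limma adjusted p = 0.0187; 0.0948 with median-ratio scaling) and 42.00, 44.4 and 57.5 against 28.5 RPKM in its mRNA row (log2 ratio -0.73, limma adjusted p = 0.0623).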

How the data were processed

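RNA of Neuro-2a cells was selected with Dynabeads mRNA DIRECT or depleted of rRNA with RiboMinus Eukaryote System v2 and sequenced on the Ion Proton, per the labels' protocols. The deposited values are RPKM, per the file headers. TopHat2 2.0.10 and the build mm9 are named in the submitters' processing notes. The counting program, its use of strand and its treatment of multiple matches: not given in the sources used here. RNA polymerase II chromatin immunoprecipitation is not analysed here.

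Names for 30507 of 30978 rows (98.5%) came from a RefSeq gene table of GRCm38.p6, used for names and for which genes overlap. Depths were those that make hairpin rows of known length whole reads. A single length then fitted the libraries, within 0.01 reads, for 93.2% of 21382 rows above 0 in at least 4 libraries, and equalled the known length in 9 of 10 hairpins. 

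Rows whose poly(A) mean and rRNA-depleted value averaged at least 0.5 RPKM were compared on log2(RPKM + 0.5) by limma 3.58.1 (with R 4.3.3), whose prior followed an abundance trend; differences of low rows are understated on that scale. In simulated data for this comparison (16601 rows), the lone library was drawn with each row's poly(A) mean and spread. Changes were set only in rows above a low poly(A) level, with no shift of all rows. There, 0% of changes of 0.5, 2% of 1, 64% of 2 and 86% of 3 log2 units were recovered, and 0.0061% of unchanged rows were called. These rates assume that the rRNA-depleted library varies like the poly(A) ones and cannot test it. Summaries used scipy 1.17.1, pandas 2.3.3 and numpy 2.4.6 under Python 3.11.15.

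Rows named by rule are the 15 largest ratios each way among called rows of at least 5 RPKM, the 3 highest, 3 lowest and 2 most abundant of each of 25 classes, and a panel of 25 genes, of which Gas5, Rn7sk, Rn18s, Rn28s1 and Rn45s have no row. Other named rows (H2bc18, H1f5, H3c14, Mir125a, Mir30d, Rps19, Rps27, Rps27rt, Rplp2, Rplp2-ps1, Aldoa, Aldoart1, Aldoart2 and the globins) were chosen after their values were seen. Members and lists were chosen with earlier results of these data known. The class of antisense RNAs is not described, since its name pattern also caught Gnas and Micos10. Alternatives were pseudocounts of 0.1 and 1, no filter or a minimum of 2 RPKM, other scalings (median-ratio, quantile), limma with no trend, leaving out each poly(A) library, 1 row per gene, an additive fit over 8 libraries, the Sfpq siRNA libraries and, added after seeing the data, only rows with whole reads in every library and at most 15000 bases.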

Additional observations from a re-analysis of the deposited data

Results flagged for a closer look

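The method ratio of 3 rows named in the text or by the rule differed between the siRNAs by limma's interaction test, which 17 rows passed in all. Of 1110038B12Rik, a noncoding snoRNA host, the row NR_027943 had 112.9, 115.5 and 107.2 RPKM in poly(A) Luc and 556, 573 and 550.0 in poly(A) Sfpq libraries, and was 0 and 0.0532 RPKM in rRNA-depleted RNA. Its difference of log2 ratios, Sfpq minus Luc, was -2.17 (SE 0.15, limma adjusted p = 0.0089), and that of its second row, NR_015536, was -2.04 (SE 0.16). Mir30d was 0 in all 6 poly(A) libraries and 5.92 and 1.33 RPKM in rRNA-depleted Luc and Sfpq RNA, a difference of -1.81. With every poly(A) value at 0, this sets 1 rRNA-depleted library against 1 other, with no replicate behind it, so no p is given. Since values at or near 0 enter all 3, the sizes depend on the 0.5 added to each value, and each siRNA has 1 rRNA-depleted library.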

How the results depend on the processing

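No paired analysis was possible because the rRNA-depleted libraries carry no replicate number. Against 430 higher and 4746 lower rows, counts were 921 and 1565 with median-ratio scaling, 1048 and 1412 with quantile normalization, 1117 and 9927 in the additive fit over 8 libraries and 883 and 9317 in the Sfpq siRNA libraries. Leaving out a poly(A) library gave 308 to 1238 higher and 3221 to 8529 lower rows, the highest counts without replicate 3. Lower rows numbered 2794 with no filter on low values, and among 8639 rows with whole reads in every library 144 were higher and 2424 lower.

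The median ratio of the RNase P/MRP, telomerase and vault list (10.88) was 11.39 and 9.91 with pseudocounts of 0.1 and 1, 11.23 with median-ratio scaling, 8.68 with quantile normalization, 11.01 in the additive fit and 7.57 in its 3 rows with whole reads. The histone median (5.83) was 5.39 with no filter, 6.19 at a minimum of 2 RPKM, 6.27 and 6.79 with median-ratio and quantile scaling, 5.27 in the additive fit, 4.97 in the Sfpq siRNA libraries and 7.31 in 5 whole-read rows. The ribosomal protein median (-2.96) was -2.92 with no filter, -2.49 and -1.75 under those scalings, -2.93 with 1 row per gene, -3.06 in the additive fit, -3.17 in the Sfpq siRNA libraries, -2.78 in 6 whole-read rows and -3.01 to -2.92 when leaving out a poly(A) library. The C/D snoRNA median turned to -0.34 with no filter and -0.55 at a minimum of 2 RPKM, and the H/ACA median to 3.39 at that minimum and 0.25 in 6 whole-read rows, over other numbers of rows.

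Over all 197 tested rows named by the rule or in the text, and 14 alternatives, 2578 values were set against the main fit. Of these, 2376 were counted as kept, 81 lost and 111 gained a call. A change of sign was counted as reversed only where either fit called the row, and otherwise as kept. Neat1, at -0.20, was thus counted as kept at 0.48 in the Sfpq siRNA libraries. The 10 reversals so defined were all with quantile normalization: H3f3b 0.72, Aldoa 1.23, Atp5b 0.17, Eif3b 0.78, Eif3l 0.80, Ldha (NM_010699) 1.32, Ldha (NR_102727) 1.40, Tubb6 0.90, Ubb-ps 0.94, Uqcrq 0.45. Apart from the numbers of rows, the cause was not tested. The single rRNA-depleted library and the few reads on short rows limit what can be called.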

Other observations

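Globin rows, chosen after their values were seen, were higher in rRNA-depleted RNA of these neuroblastoma cells. Hba-a1, an adult alpha globin, had 0.0369, 0.0649 and 0.232 against 13.6 RPKM (log2 ratio 4.54), and 2.899 RPKM in rRNA-depleted Sfpq RNA. Its poly(A) values lay below the filter's level of 0.5 RPKM. The row entered the test only through the rRNA-depleted value, so no p is given. Hba-a2, a near-identical copy, had 13.5 and 2.88 RPKM in the rRNA-depleted libraries. The embryonic beta-like globin Hbb-bh1 was 0 in all 3 poly(A) Luc libraries and 2.16 RPKM in rRNA-depleted Luc RNA.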
